A study of Mus musculus with 8 samples.

Results

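Genes that sense DNA damage, signal it and repair it were examined in islet RNA from NOD mice given PAHSA or vehicle. A list of 46 genes was used, chosen by function with earlier results of these data known. It covers damage kinases, break sensors, homologous recombination, end joining, base excision, nucleotide excision, mismatch and crosslink repair, without the p53 targets Ddb2, Xpc, Polk and Rrm2b. Of the 46 genes, 43 were found among the 13725 genes of the deposited table, and 40 passed a filter on low values and were tested. Brca1, Bard1 and Fancd2 were not analysed here.

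The study gave PAHSA, lipids in which palmitic acid is esterified to a hydroxy stearic acid, to mice and sequenced RNA of their pancreatic islets. The PAHSA group (spelled PASHA in the sample labels) holds 4 libraries, numbered 1, 2, 3 and 4. The vehicle group holds 4 libraries, numbered 1, 3, 4 and 5. All came from islets of female mice aged 10 weeks with the genotype NOD, a strain in which immune cells invade the islets and destroy beta cells, so the controls share this autoimmune background. No source used here gives the dose, the route or the length of treatment. The series' title names cell senescence, metabolic stress of beta cells and the Mdm2 and p53 pathway. The series' design counts 4 mice a group, whereas the extraction protocol has the islets of 2 mice in each sample, so p-values measure the spread between libraries, whether each is 1 mouse or a pool.

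Cells answer a broken DNA strand with a kinase cascade. The MRE11, RAD50 and NBN complex finds double-strand ends and recruits ATM, while single-stranded DNA coated by RPA recruits ATR with its partner ATRIP. These kinases mark the histone H2AX, activate CHEK2 and CHEK1, and through them p53, a route by which lasting damage drives cells into senescence. Repair itself is split by lesion: recombination and end joining for double-strand breaks, base excision for oxidised or lost bases and single-strand breaks, nucleotide excision for bulky lesions, mismatch repair for replication errors and the Fanconi proteins for crosslinks. Beta cells divide rarely and have little defence against peroxide, and oxidised bases are a lesion often studied in them.

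The deposited values are log2 CPM, the log of a gene's reads as a share of all reads in its library, not divided by gene length. Effective library sizes recovered from the lowest value of each library were between 35581696 and 39913823 in PAHSA libraries and between 35268422 and 45241771 in vehicle libraries. Endocrine markers fitted the islet label by their level. Beta cell markers, 10 of 10 in the table, summed to at least 137132 CPM in every library. Alpha cell markers, 6 of 6 in the table, summed to at least 61125 CPM. Acinar markers, mostly digestive enzymes, were 17 of 19 in the table. Their summed level was 474 to 16518 CPM in PAHSA libraries and 10886 to 44404 CPM in vehicle libraries, with PAHSA replicate 4 lowest and vehicle replicate 4 highest. Stellate cell and fibroblast markers summed to 38.3 to 143 CPM in PAHSA libraries and 82.2 to 314 CPM in vehicle libraries over 10 of 10 markers. Of the T and NK cell markers 1 of 8 and of the B cell markers 1 of 5 were in the table. In bulk RNA, fewer cells of a type and less RNA per cell cannot be told apart.

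No repair gene passed the test between PAHSA and vehicle islets. In limma, 0 of 40 tested members passed an adjusted p of 0.05, as did 0 of 12231 genes overall (0%), and the smallest adjusted p among the members was 0.671. By direction, 22 members were higher and 18 lower in PAHSA, a near-even split as in all genes, of which 49.1% were higher. The median difference of the members, PAHSA minus vehicle, was 0.05 on the log2 CPM scale, beside -0.006 over all genes tested. An unadjusted p under 0.05 was found for 1 of 40 members, Parp2, against a background of 7.31% of all genes. That count was 2 without PAHSA replicate 2 or vehicle replicate 5, 3 without PAHSA replicate 4 or vehicle replicate 3, and 4 without vehicle replicate 4, while the share of all genes was between 5.47% and 7.91% without 1 library. The 4 PAHSA values lay wholly on one side of the 4 vehicle values for 1 of 40 members, Msh6, against a background of 4.01%. That 1 was lower in PAHSA (1.95% of all genes), and 0 members were wholly higher (2.06% of all genes). Without PAHSA replicate 4 the count was 4, without PAHSA replicate 2, PAHSA replicate 3, vehicle replicate 1 or vehicle replicate 3 it was 3, and without PAHSA replicate 1 or vehicle replicate 4 it was 2. With fewer values to overlap, the share of all genes was also larger without 1 library, between 6.27% and 8.34%. The spread was too wide for small effects, since the 95% confidence interval of a member's difference reached a median of 0.62 to either side. The mean log2 CPM of the 40 members was 4.09, 4.20, 4.23 and 4.29 in PAHSA replicates 1 to 4, against 4.06, 4.18, 4.11 and 4.13 in vehicle replicates 1, 3, 4 and 5, and the groups overlapped.

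**Figure D1:**
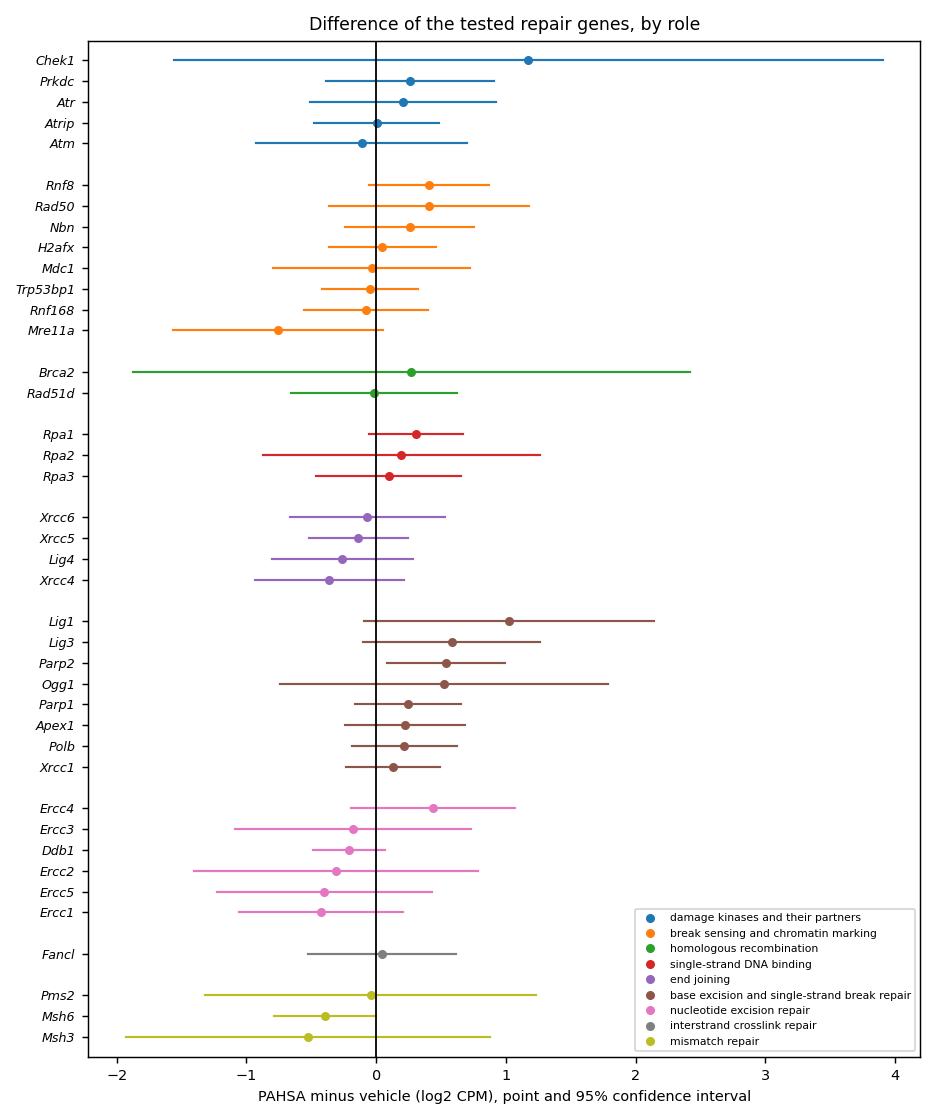
Difference between PAHSA and vehicle libraries (log2 CPM, x axis) for each of the 40 tested genes, grouped by role. Points are the PAHSA mean minus the vehicle mean and lines the 95% confidence interval from limma (n = 4 libraries each). The 8 base excision genes all lie right of 0 and the 4 end joining genes left of it, and every interval but that of Parp2 includes 0.

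The split by direction varied among the roles. All 8 base excision and single-strand break genes were higher in PAHSA on average, as were the 3 RPA genes. The 4 end joining genes and the 3 mismatch repair genes were all lower, and so were 5 of 6 nucleotide excision genes. Prkdc, which also acts in end joining, was counted with the damage kinases and was higher. Of the tested damage kinases and their partners 4 of 5 were higher. Among these, Chek1 had a mean above 0 in PAHSA only (0.75 log2 CPM, against -0.43 in vehicle). Chek2, which did not pass the filter, was lower (-1.84) and is not counted. The break sensors were split evenly, with 4 of 8 higher. These are counts of differences that did not pass the test one by one.

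The promoters of 4 members are shown because Parp2 had the smallest p, Lig3 is its partner in single-strand break repair, Msh6 was the member whose groups did not overlap, and Mdc1 carries a match of each of the 2 motifs found most often among the members. Each line gives the 250 bases before the RefSeq start, 5′ to 3′ on the gene's strand, from RefSeq on GRCm38.p6, with motif matches in capitals. The windows are chr14:50807666-50807915 for Parp2, chr11:82780859-82781108 for Lig3, chr17:87974800-87975049 for Msh6 and chr17:35841248-35841497 for Mdc1, all on the plus strand. In GENCODE, the annotation used for the gene coordinates given here, Parp2 starts at 50807841, inside its window. Lig3 starts at 82781108, the last base of its window.
Parp2: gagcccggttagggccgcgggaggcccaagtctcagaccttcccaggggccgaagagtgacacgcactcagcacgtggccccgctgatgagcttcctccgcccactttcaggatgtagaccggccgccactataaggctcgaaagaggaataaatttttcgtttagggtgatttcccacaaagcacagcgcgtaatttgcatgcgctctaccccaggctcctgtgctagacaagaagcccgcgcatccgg
Lig3: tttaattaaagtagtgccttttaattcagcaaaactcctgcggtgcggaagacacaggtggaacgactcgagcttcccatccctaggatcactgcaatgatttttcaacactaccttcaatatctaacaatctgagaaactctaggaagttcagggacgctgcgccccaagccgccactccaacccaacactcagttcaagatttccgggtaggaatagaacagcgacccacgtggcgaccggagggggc
Msh6: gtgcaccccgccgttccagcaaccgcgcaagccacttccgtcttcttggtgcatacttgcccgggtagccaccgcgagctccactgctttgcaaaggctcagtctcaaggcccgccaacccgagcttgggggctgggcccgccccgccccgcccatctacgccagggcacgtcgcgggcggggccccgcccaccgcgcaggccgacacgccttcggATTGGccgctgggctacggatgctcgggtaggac
Mdc1: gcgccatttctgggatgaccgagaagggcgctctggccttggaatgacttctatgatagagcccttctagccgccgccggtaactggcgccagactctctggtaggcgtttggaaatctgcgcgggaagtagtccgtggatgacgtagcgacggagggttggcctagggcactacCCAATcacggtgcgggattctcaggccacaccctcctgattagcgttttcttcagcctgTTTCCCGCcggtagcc

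Promoter windows were found for 36 of the 43 members in the table, 40 windows in all because some genes have more than 1 start. The members without one were Prkdc, Rad50, Nbn, H2afx, Rad51d, Polb and Ercc3. Both strands were searched for the E2F motifs TTTCCCGC, TTTGGCGC and TTTCGCGC, for the NRF1 core CGCATGCG, for CCAAT and for the p53 half-site, and no match of one motif overlapped a match of another in these windows. An E2F motif, the letters bound by the factors that switch on genes of DNA replication, was in 5 of 40 member windows (12.5%), those of Chek2, Brca2, Msh3, Xrcc6 and Mdc1, against 2.65% of 13089 windows of genes in the table. The CCAAT box was in 19 of 40 (47.5%) against 35.1%, the NRF1 core in 1 of 40 (Lig4) against 3.01% and the p53 half-site in 1 of 40 (Fanca) against 6.07%. Of the 9 windows of the base excision genes, 0 held the E2F motifs and 3 held a CCAAT box. Such a match is a description of letters in the window and not a binding site.

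Among the damage kinases no member passed the test. Atm, which encodes the kinase recruited to double-strand breaks, was at 4.47, 5.25, 4.45 and 4.61 log2 CPM in the 4 PAHSA libraries (replicates 1 to 4), against 5.31, 4.98, 3.61 and 5.32 in vehicle replicates 1, 3, 4 and 5. The lowest value was that of vehicle replicate 4 and the groups overlapped, with a difference of -0.11 (SE 0.37) that became -0.51 without that library. Atr, the kinase of stalled replication forks, had 3.96, 3.55, 4.80 and 4.87 log2 CPM in PAHSA libraries, against 3.97, 4.55, 3.85 and 3.99 in vehicle libraries. PAHSA replicates 3 and 4 were above and PAHSA replicate 2 below every vehicle library, a difference of 0.21 (SE 0.33) that was 0.02 without PAHSA replicate 4 and 0.46 without PAHSA replicate 2. Its partner Atrip differed by 0.003 (SE 0.22).

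Prkdc, the catalytic subunit of the DNA-dependent protein kinase that starts end joining, was at 3.54, 4.60, 4.64 and 3.80 log2 CPM in PAHSA libraries and at 3.82, 4.05, 3.98 and 3.67 in vehicle libraries. PAHSA replicates 2 and 3 were above all vehicle libraries and PAHSA replicate 1 below them, a difference of 0.26 (SE 0.29) that was 0.10 without PAHSA replicate 3 and 0.47 without PAHSA replicate 1. Chek1, the effector kinase of ATR, was low and erratic, at 1.95, 0.74, 1.19 and -0.89 log2 CPM in PAHSA libraries and -3.82, -0.63, 2.13 and 0.62 in vehicle libraries. Its difference of 1.17 had an SE of 1.24 and was 0.04 without vehicle replicate 1 and 2.03 without vehicle replicate 4. Chek2, the effector kinase of ATM, was below the filter and was not tested. It stood at 1.42, -4.16, -3.34 and 1.36 log2 CPM in PAHSA libraries and at -0.68, 0.61, 2.41 and 0.29 in vehicle libraries, so that PAHSA replicates 2 and 3 lay far below the other 6 libraries.

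Break sensing and chromatin marking genes went both ways. Mre11a (ENSMUSG00000031928, chromosome 9 from 14784654 to 14837123 in GRCm38, protein-coding), the nuclease of the end-binding complex, was at 3.62, 2.60, 3.18 and 3.91 log2 CPM in the 4 PAHSA libraries (replicates 1 to 4). In vehicle replicates 1, 3, 4 and 5 it was at 3.49, 4.04, 3.98 and 4.83. All 4 PAHSA values were below the vehicle median, but PAHSA replicates 1 and 4 lay within the vehicle range. The difference was -0.76 (SE 0.37, 0.592-fold) with an adjusted p of 0.700 in limma, and it was -0.51 without vehicle replicate 5. The other subunits of the same complex had differences of the opposite sign, 0.41 (SE 0.35) for Rad50 and 0.26 (SE 0.22) for Nbn. Leaving out 1 library, that of Rad50 was between 0.26 (without vehicle replicate 1) and 0.67 (without PAHSA replicate 2) and that of Nbn between 0.11 (without vehicle replicate 5) and 0.42 (without PAHSA replicate 4).

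Rnf8, a ubiquitin ligase that marks chromatin beside a break, was at 5.61, 5.54, 5.97 and 5.20 log2 CPM in PAHSA libraries, against 4.75, 5.32, 5.46 and 5.16 in vehicle libraries. PAHSA replicates 1, 2 and 3 were above every vehicle library and PAHSA replicate 4 was inside their range. Its difference was 0.41 (SE 0.21, limma adjusted p = 0.710). Of the exon bases of Rnf8, 13.2% are also exonic in Gm28043 on the same strand. Rnf168, which extends the mark of Rnf8, differed by -0.08 (SE 0.22) and the adaptor gene Mdc1 by -0.04 (SE 0.34). H2afx, the histone whose phosphorylated form is the usual stain for breaks, had the smallest residual SD of the 40 members, 0.14. Its levels were 4.25, 4.53, 4.31 and 4.42 log2 CPM in PAHSA libraries and 4.37, 4.52, 4.25 and 4.18 in vehicle libraries, a difference of 0.05 (SE 0.19, 95% confidence interval -0.37 to 0.46). RNA levels do not show its phosphorylation. Trp53bp1, which steers breaks to end joining, was at 6.16, 6.27, 6.55 and 6.33 log2 CPM in PAHSA libraries and 6.27, 6.20, 6.18 and 6.84 in vehicle libraries. Vehicle replicate 5 was highest, and the difference of -0.05 (SE 0.17) was 0.11 without it.

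Of the homologous recombination genes 3 were in the table and 2 were tested. Brca2, a tumour suppressor gene that recombination depends on, was at -0.96, -0.03, 1.38 and 1.96 log2 CPM in PAHSA libraries and at 1.87, 1.37, -1.40 and -0.57 in vehicle libraries. The spread within each group was larger than the difference of 0.27 (SE 0.97), which was -0.30 without vehicle replicate 4. Rad51d, which also acts in recombination, differed by -0.02 (SE 0.29). Rad51c, a further gene of this role, was below the filter, between -4.54 and 2.53 log2 CPM in PAHSA libraries and between -4.13 and 1.72 in vehicle libraries.

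The 3 subunits of RPA, the complex that coats single-stranded DNA, were higher in PAHSA on average. Their summed level was 78.1, 72.7, 80.8 and 88.8 CPM in PAHSA replicates 1 to 4, against 67.7, 69.4, 68.2 and 60.6 CPM in vehicle replicates 1, 3, 4 and 5, and these sums did not overlap. Their mean log2 CPM did overlap. The sums mostly reflect Rpa1, at a mean of 5.78 log2 CPM in PAHSA and 5.47 in vehicle, against 3.48 and 3.29 for Rpa2. Rpa3 had means of 3.565 in PAHSA and 3.469 in vehicle. Rpa1, the large subunit, was at 5.94, 5.50, 5.90 and 5.79 log2 CPM in the 4 PAHSA libraries (replicates 1 to 4), against 5.46, 5.77, 5.45 and 5.22 in vehicle replicates 1, 3, 4 and 5. PAHSA replicates 1, 3 and 4 were above every vehicle library, though PAHSA replicate 4 only by a small margin over vehicle replicate 3. Rpa1 differed by 0.31 (SE 0.16, 1.24-fold, limma adjusted p = 0.718). The differences of Rpa2 and Rpa3 were 0.19 (SE 0.48) and 0.10 (SE 0.25), and that of Rpa2 was -0.13 without vehicle replicate 3 and -0.12 without PAHSA replicate 4, while that of Rpa3 was 0.02 without PAHSA replicate 2.

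The 4 end joining members were all lower in PAHSA by small amounts, from -0.07 to -0.36 with a median of -0.20. Prkdc, which starts end joining but was grouped with the damage kinases, differed in the other direction by 0.26 (SE 0.29). Xrcc4, the scaffold of the ligase, was at 3.43, 3.40, 3.45 and 3.03 log2 CPM in PAHSA libraries, against 3.66, 3.38, 4.02 and 3.69 in vehicle libraries. All 4 PAHSA values were below the vehicle median and vehicle replicate 3 lay among them, a difference of -0.36 (SE 0.26). Lig4, the ligase itself, differed by -0.26 (SE 0.25; -0.09 without PAHSA replicate 3). Xrcc5 and Xrcc6, which encode the 2 Ku subunits that clamp broken ends, differed by -0.14 (SE 0.17; -0.05 without PAHSA replicate 3) and -0.07 (SE 0.27; 0.15 without PAHSA replicate 3). With the dividing cell marker mean as a covariate 2 of the 4 were higher and the median was -0.03.

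Base excision and single-strand break repair was, of the 4 roles with more than 1 tested gene and a single direction, that with the most genes. All 8 of its members were higher in PAHSA on average, where 49.1% of all genes were, with differences between 0.13 and 1.03 and a median of 0.38. The mean of the 8 was 4.68, 4.62, 4.61 and 4.89 log2 CPM in the 4 PAHSA libraries (replicates 1 to 4), against 4.21, 4.33, 4.38 and 4.12 in vehicle replicates 1, 3, 4 and 5. Every PAHSA library was above every vehicle library in this mean. Their summed CPM also kept the groups apart, at 276, 275, 300.3 and 328 in PAHSA libraries and 218, 255, 259 and 232 in vehicle libraries. No p is attached to this mean, since the roles were drawn up with earlier results of these data known. The 15 further tested genes of this pathway, described below, were 7 higher and 8 lower, with a median of -0.06. The mean levels of beta cell markers (higher in PAHSA) and stellate cell markers (lower in PAHSA) also kept the groups apart.

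Parp2 (ENSMUSG00000036023, chromosome 14 from 50807841 to 50821301 in GRCm38, protein-coding), a polymerase of ADP-ribose that responds to strand breaks, was at 4.99, 4.84, 4.88 and 4.75 log2 CPM in the 4 PAHSA libraries (replicates 1 to 4). In vehicle replicates 1, 3, 4 and 5 it was at 3.99, 4.29, 4.78 and 4.24. Vehicle replicate 4 was inside the PAHSA range and the other 3 vehicle libraries were below it. The difference was 0.54 (SE 0.21, 1.45-fold, 95% confidence interval 0.08 to 0.99), with an unadjusted p of 0.0245 and an adjusted p of 0.671 in limma. It ranged from 0.43 to 0.73 over 17 alternatives. Parp1, the main enzyme of that family, was at 6.10, 6.30, 6.60 and 6.68 log2 CPM in PAHSA libraries and 5.95, 6.31, 6.56 and 5.89 in vehicle libraries. The groups overlapped, with a difference of 0.24 (SE 0.18) that was 0.15 without vehicle replicate 5.

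Lig1 (ENSMUSG00000056394, chromosome 7 from 13277283 to 13311433, protein-coding), a ligase that also joins Okazaki fragments in replication, was at 2.72, 3.18, 3.24 and 3.59 log2 CPM in PAHSA libraries, against 1.48, 2.98, 3.08 and 1.08 in vehicle libraries. Vehicle replicates 1 and 5 were far below the other libraries, while vehicle replicates 3 and 4 were within the PAHSA range. The difference was 1.03 (SE 0.51, 2.04-fold, limma adjusted p = 0.708), and 0.67 without vehicle replicate 5. Lig3, the ligase of single-strand break repair, was at 5.36, 5.45, 5.07 and 5.70 log2 CPM in PAHSA libraries and 5.13, 5.02, 3.79 and 5.31 in vehicle libraries. Vehicle replicate 4 was lowest by a wide margin, and the difference of 0.58 (SE 0.31) was 0.24 without it. Lig3 shares 25.1% of its exon bases with Rffl on the other strand, which this library kit does not tell apart.

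Xrcc1, the scaffold that holds LIG3 at the break, was at 5.81, 5.32, 5.71 and 5.88 log2 CPM in PAHSA libraries and 5.33, 5.56, 5.76 and 5.55 in vehicle libraries. Its difference of 0.13 (SE 0.16; 0.06 without vehicle replicate 1) was the smallest of the 8 and PAHSA replicate 2 was the lowest library of all. Ogg1, the glycosylase that removes oxidised guanine, differed by 0.52 (SE 0.57; 0.23 without vehicle replicate 3), Apex1, the nuclease that cuts at the lost base, by 0.22 (SE 0.21; 0.10 without vehicle replicate 1) and Polb, the polymerase that fills the gap, by 0.22 (SE 0.18; 0.12 without vehicle replicate 5). Of the exon bases of Apex1, 61.7% are also exonic in Pip4p1 on the other strand, and of those of Ogg1 10.6% in Camk1.

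Cell type markers also differed on average between the groups. The median difference of the base excision members was 0.23 with the acinar marker mean as a covariate and 0.38 with that of dividing cell markers. It was 0.25 without both libraries numbered 4, and 8 of 8 members were higher each time. Without any one library 8 of 8 were higher too, with a median between 0.30 and 0.41. With a filter at a mean of 2 log2 CPM, which Ogg1 does not pass, 7 of 7 were higher with a median of 0.24. Beta cell markers had a mean of 9.79 to 9.98 log2 CPM in PAHSA libraries and 9.42 to 9.67 in vehicle libraries, a summed level of 141476 to 175773 CPM in PAHSA and 137132 to 180008 CPM in vehicle, and 10 of 10 were in the table. Stellate cell markers had a mean of 0.41 to 2.02 log2 CPM in PAHSA libraries and 2.10 to 4.10 in vehicle libraries. Duct cell markers, 8 of 9 in the table, summed to 3054 to 4005 CPM in PAHSA libraries and 3830 to 5750 CPM in vehicle libraries, with 6 of 8 lower and 4 at an unadjusted p under 0.05. Macrophage and dendritic cell markers, 5 of 10 in the table, summed to 174 to 409 CPM in PAHSA libraries and 252 to 644 CPM in vehicle libraries, with 5 of 5 lower and 1 (Cd14, named after its values were seen) at an unadjusted p under 0.05. Endothelial markers, 3 of 8 in the table, summed to 32.7 to 46.3 CPM in PAHSA libraries and 33.8 to 72.2 CPM in vehicle libraries, with 3 of 3 lower. Of the beta cell markers 8 of 10 were higher, 3 at an unadjusted p under 0.05 in limma. All 16 tested acinar markers were lower (median -2.33), 12 at that level. Of the stellate cell markers 8 of 9 tested were lower, 1 at that level. Over all genes 50.9% were lower, with 4.29% lower and 3.02% higher at that level. The part of beta, stellate, duct, macrophage and endothelial cells in the base excision result was not tested. Dividing cell markers, 13 of 20 in the table, summed to 162 to 223 CPM in PAHSA and 174 to 189 CPM in vehicle libraries. Of the 11 tested, 6 were higher and 5 lower, and Mki67, Ccna2, Ccnb1, Birc5, Aurkb, Bub1 and Plk1 were not analysed here.

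**Figure D2:**
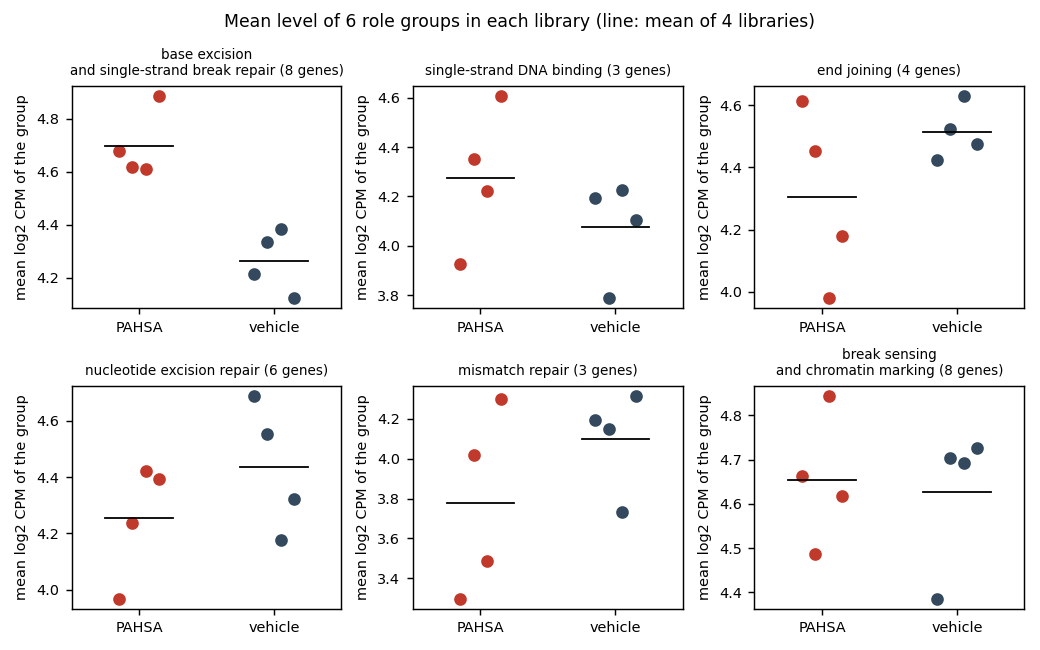
Mean log2 CPM of the tested genes of 6 roles (y axis, not starting at 0) in each PAHSA and vehicle library, with a line at the mean of the 4 libraries. The base excision group lies between 4.61 and 4.89 in PAHSA and between 4.12 and 4.38 in vehicle libraries, while the groups overlap in the other 5 panels.

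Nucleotide excision genes were lower in PAHSA on average in 5 of 6 cases, against 50.9% of all genes, with a median of -0.26. Ercc1, which forms the incision nuclease with ERCC4, was at 3.05, 3.58, 2.92 and 3.11 log2 CPM in the 4 PAHSA libraries (replicates 1 to 4), against 3.65, 3.48, 3.99 and 3.25 in vehicle replicates 1, 3, 4 and 5. PAHSA replicates 1, 3 and 4 were below every vehicle library and PAHSA replicate 2 was inside their range, a difference of -0.43 (SE 0.29, limma adjusted p = 0.769). Its partner Ercc4 differed in the other direction, at 4.07, 4.09, 5.01 and 4.66 log2 CPM in PAHSA libraries and 4.57, 3.84, 3.96 and 3.72 in vehicle libraries. All 4 PAHSA values of Ercc4 were above the vehicle median, and the difference of 0.44 (SE 0.29) was 0.25 without PAHSA replicate 3.

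Ddb1, the adaptor of the ligase that finds ultraviolet damage and a general part of CUL4 ligases, was at 7.99, 8.36, 8.39 and 7.96 log2 CPM in PAHSA libraries, against 8.57, 8.26, 8.38 and 8.32 in vehicle libraries. PAHSA replicates 1 and 4 were below every vehicle library and the other PAHSA libraries were among them, a difference of -0.21 (SE 0.13; -0.14 without PAHSA replicate 4). The helicase genes Ercc2 and Ercc3 differed by -0.31 (SE 0.49; 0.03 without PAHSA replicate 3) and -0.18 (SE 0.41; 0.05 without PAHSA replicate 1). The nuclease gene Ercc5 differed by -0.40 (SE 0.37), most of it from PAHSA replicate 1, without which it was -0.03. The median of the 6 was -0.09 without PAHSA replicate 1.

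The mismatch repair genes were all lower in PAHSA on average, 3 of 3. Msh6 (ENSMUSG00000005370, chromosome 17 from 87975062 to 87990892 in GRCm38, protein-coding), which takes part in recognising single mismatches, was at 5.16, 5.13, 4.84 and 4.85 log2 CPM in the 4 PAHSA libraries (replicates 1 to 4). In vehicle replicates 1, 3, 4 and 5 it was at 5.77, 5.36, 5.22 and 5.20. All PAHSA libraries were below all vehicle libraries; the nearest were PAHSA replicate 1 and vehicle replicate 5. The difference was -0.39 (SE 0.18, 0.761-fold, 95% confidence interval -0.79 to 0.002), with an unadjusted p of 0.0510 and an adjusted p of 0.687 in limma, and -0.27 without vehicle replicate 1. Msh3, which acts on larger loops, differed by -0.53 (SE 0.63) and by 0.20 without PAHSA replicate 1, the library at 1.08 where the other PAHSA libraries were between 3.83 and 4.25. Pms2, the nuclease subunit, differed by -0.04 (SE 0.58).

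Of the crosslink repair genes Fancl, the ubiquitin ligase of the Fanconi pathway, differed by 0.04 (SE 0.26). Fanca, a core subunit, was below the filter, between -2.16 and -0.35 log2 CPM in PAHSA libraries and between -1.39 and 2.30 in vehicle libraries. Its highest value was that of vehicle replicate 4.

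**Figure D3:**
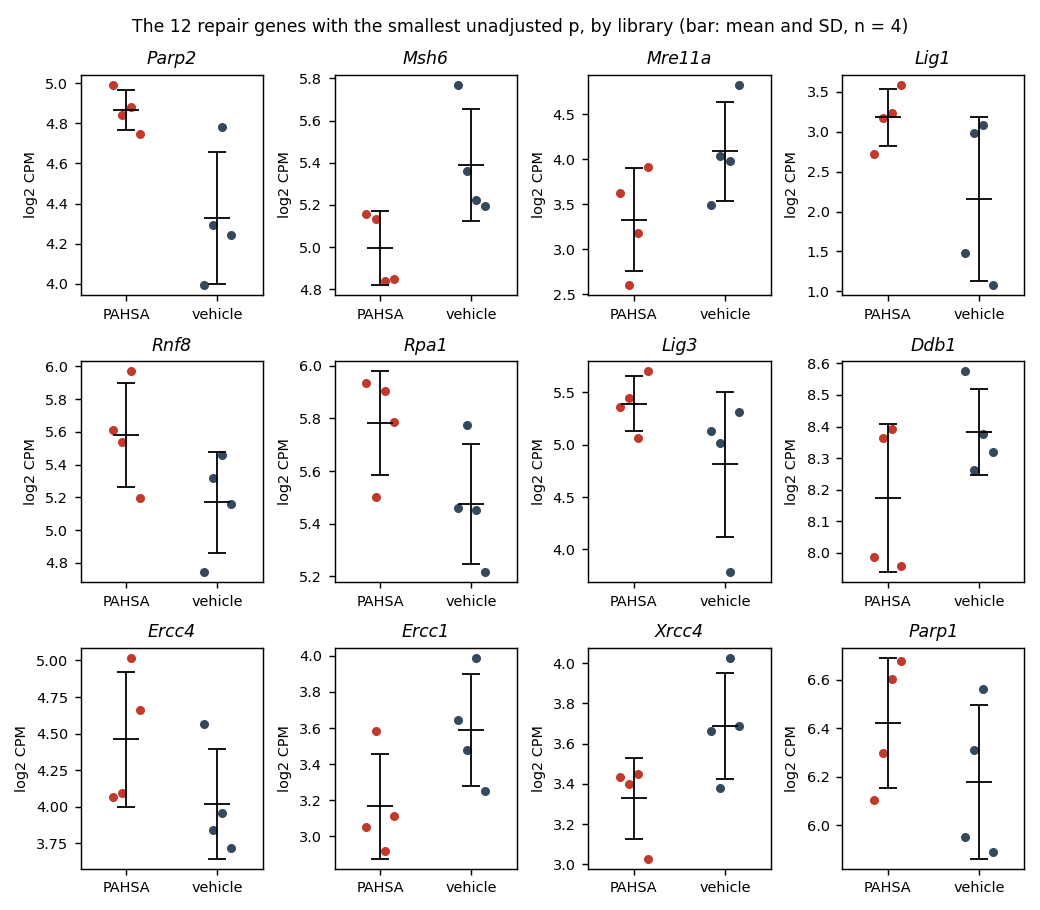
Levels (log2 CPM, y axis, not starting at 0) of the 12 members with the smallest unadjusted p, in order of p, by library, with the mean and SD of each group (n = 4). The groups are apart for Msh6, and nearly apart for Parp2, where vehicle replicate 4 reaches the PAHSA values.

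The members varied among libraries about as much as other genes. Their median residual SD within groups was 0.36 on the log2 CPM scale, beside 0.35 over all genes tested. The widest residual SDs were 1.98 for Chek1 and 1.45 for Brca2, both near the filter, and 1.12 for Msh3, which had 1 low library, PAHSA replicate 1. No library was extreme for most members: PAHSA replicate 4 was the highest of the 8 for 10 members and vehicle replicate 5 the lowest for 9.

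**Figure D4:**
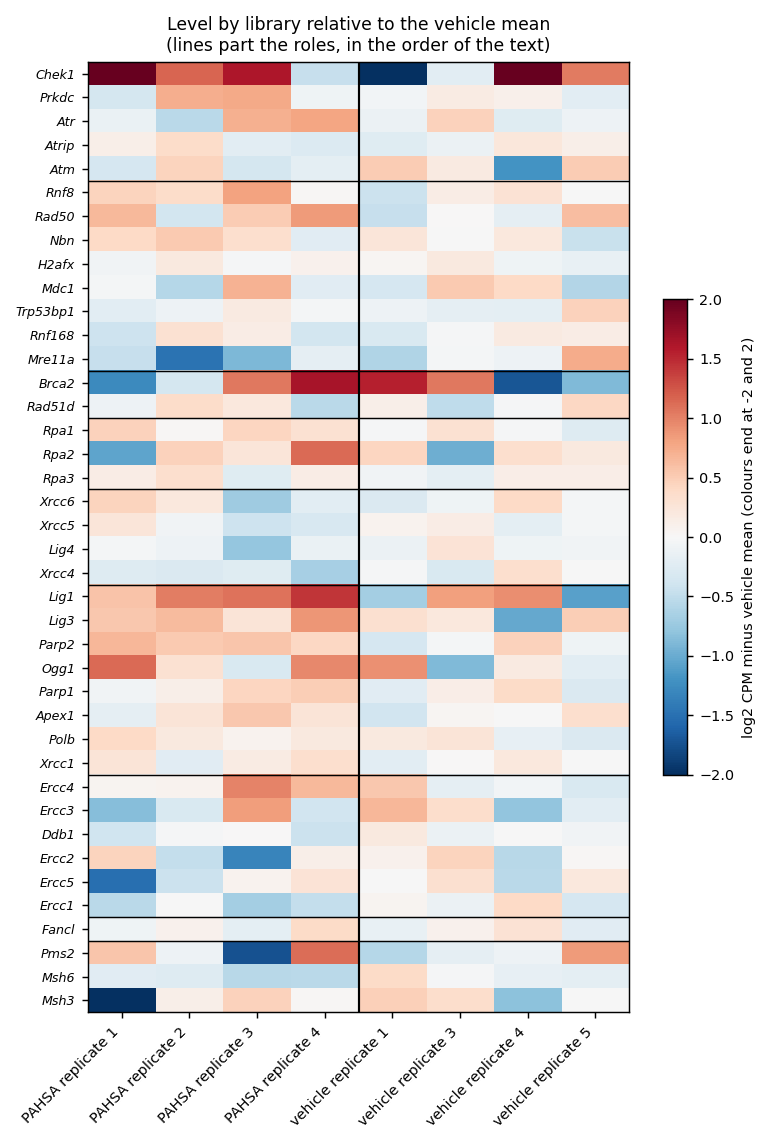
Level of each tested member (rows, grouped by role) in each library (columns) minus its vehicle mean, in log2 CPM, with colours ending at -2 and 2. The base excision rows from Lig1 to Xrcc1 are mostly red in the 4 PAHSA columns, and single dark cells mark lone libraries, such as Msh3 in PAHSA replicate 1 at 1.08 log2 CPM.

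Further genes of the same pathways were examined from lists drawn up by function, also with earlier results of these data known. Of 130 in the table, 117 were tested, 56 higher and 61 lower in PAHSA, with a median of -0.02 and 0 past the adjusted threshold. An unadjusted p under 0.05 was found for 2 higher and 3 lower genes, against a background of 3.02% higher and 4.29% lower. Other base excision and single-strand break genes were 7 higher and 8 lower of 15 tested, with a median of -0.06 and none at an unadjusted p under 0.05. Other end joining genes were 5 higher of 8, other mismatch repair and direct reversal genes 5 higher of 7, and other nucleotide excision genes 6 higher and 13 lower of 19. The difference between members and these genes was not tested.

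**Figure D5:**
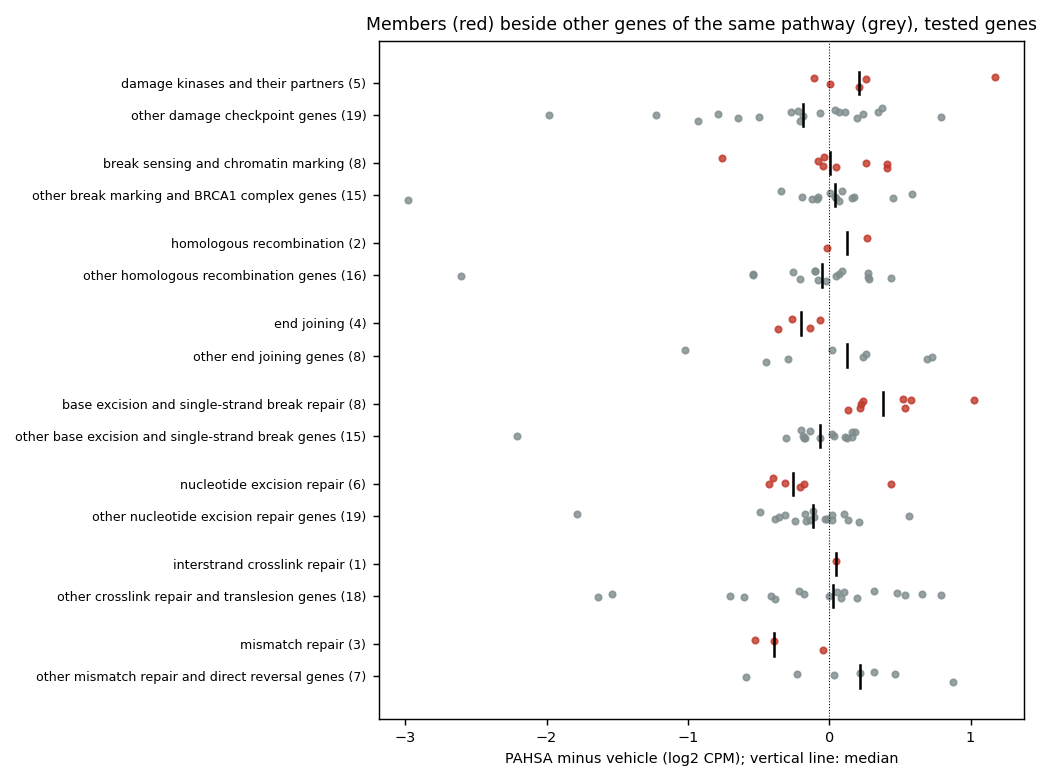
Difference between PAHSA and vehicle (log2 CPM, x axis) of the tested members of 8 roles (red) and of further genes of the same pathways (grey), with the number of genes in brackets and a line at the median. The base excision members have a median of 0.38 and the further genes of that pathway one of -0.06.

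The further genes with the smallest p were Tlk2, Uvssa, Dclre1c and Cdc25a. Tlk2, a kinase of chromatin assembly that damage signalling inhibits, was at 4.64, 4.69, 4.42 and 4.25 log2 CPM in PAHSA libraries, against 4.04, 3.42, 3.59 and 3.77 in vehicle libraries. It was the 1 of these 117 genes whose groups did not overlap, against a background of 4.01% of all genes. Its difference was 0.79 (SE 0.23, limma adjusted p = 0.671). Dclre1c, which encodes the end joining nuclease Artemis, differed by 0.73 (SE 0.27), Uvssa, a factor of transcription-coupled repair, by -1.79 (SE 0.61) and Cdc25a, the phosphatase that CHEK1 targets for destruction, by -0.64 (SE 0.24). The remaining gene under 0.05, Usp28, a deubiquitinase, differed by -2.98 (SE 1.28) and was named after its values were seen. The 4 p53 target repair genes left out of the list were all lower on average, with differences of -0.82 (SE 0.58) for Ddb2, -0.09 (SE 0.24) for Xpc, -0.84 (SE 0.49) for Polk and -0.10 (SE 0.21) for Rrm2b, none at an unadjusted p under 0.05.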

How the data were processed

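Total RNA of islets was turned into libraries with the NexteraXT kit, per the labels' protocols, and reads of both strands are mixed. The deposited values are log2 CPM that the authors made with kallisto and limma, per the submitters' processing notes; no version, genome build or annotation is named in the labels. Transcripts that resemble each other compete for reads in kallisto, so overlapping genes are less certain. Of 43 members, 8 share over 10% of their exon bases with a gene on the other strand. On the same strand, Atrip shares 16.0% with Trex1 and Rnf8 13.2% with Gm28043. Effective library sizes were read from the lowest value, taken as 0.5 added counts. Between 47.8% and 51.5% of recovered values were within 0.01 of an integer, so no count test was run.

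Ensembl identifiers were given symbols from GENCODE M21 (GRCm38), and 56 had none. Genes with a mean log2 CPM above 0 were tested with limma 3.58.1 in R 4.3.3 (eBayes with trend, two-sided, group as the only term), with Benjamini-Hochberg adjustment over 12231 genes and a threshold of 0.05. The fit was tested on simulated data. Differences are PAHSA minus vehicle, and the added counts understate those of weakly expressed genes. Values in every library are given for the 12 members with the smallest p and for 14 fixed members where in the table; of further pathway genes, the 4 with the smallest p and 4 p53 targets are named. The members and lists were chosen with earlier results of these data known. Alternatives were other filters, log2(CPM + 1), quantile normalization, eBayes without trend, marker means as covariates, a replicate block and leaving out libraries.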

Additional observations from a re-analysis of the deposited data

Results flagged for a closer look

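In 6 of 86 groups of 4 libraries (43 members in PAHSA and in vehicle), 1 library lay far from the other 3, where chance gives about 1 in 20. Lig4 was at 3.29 log2 CPM in PAHSA replicate 3, against 3.94 to 4.03 in the other PAHSA libraries, and at 4.35 in vehicle replicate 3, against 3.94 to 3.99 in the other vehicle libraries. Xrcc4, its scaffold, was at 3.03 in PAHSA replicate 4, against 3.40 to 3.45. Msh3 was at 1.08 in PAHSA replicate 1, against 3.83 to 4.25. In vehicle libraries, Rpa2 was at 2.32 in replicate 3, against 3.49 to 3.72, and Trp53bp1 at 6.84 in replicate 5, against 6.18 to 6.27.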

How the results depend on the processing

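The number of members past the adjusted threshold in limma was 0 under all 17 alternatives, as was that of all genes, with 669 to 1021 genes at an unadjusted p under 0.05. The smallest adjusted p among members was between 0.491 and 0.885. Members at an unadjusted p under 0.05, 1 in the reported fit, were 2 without a filter and under quantile normalization, 3 with the acinar mean as a covariate, 3 without both libraries numbered 4 (an alternative chosen after seeing the data) and 0 with the replicate block. The shares of all genes were 7.44% without a filter, 7.34% under quantile normalization and 8.29% without both libraries numbered 4. With the acinar mean 868 of 12231 genes reached that level, and 729 did with the replicate block. Without 1 library such members were 1 to 4, beside 5.47% to 7.91% of all genes. Members whose groups do not overlap were 1 to 4 without 1 library, beside 6.27% to 8.34% of all genes. They were 5 without both libraries numbered 4, where 14.7% of all genes did not overlap. The median difference of the members was 0.0236 to 0.11 without 1 library. Replicate numbers 1, 3 and 4 occur in both groups, but their deviations from the group means did not go together (correlations over genes of -0.0202, -0.0169 and -0.0217) and 0 of 6 libraries correlated best with the library of its own number, so the numbers were not taken as pairs. The sign of the difference turned for 17 of 40 members in at least 1 alternative and for 23 in none; the cause was not tested. With the acinar mean as a covariate, it turned for Fancl (-0.0799), Rnf168 (0.226), Rad51d (0.362), Xrcc6 (0.037), Atr (-0.17), Brca2 (-0.799), Trp53bp1 (0.00379) and Mdc1 (0.0335). With the dividing cell mean as a covariate, it turned for Rad51d (0.0782), Xrcc6 (0.199), Xrcc5 (0.0245), Ercc2 (0.0693), Atr (-0.148), Atm (0.175), Brca2 (-0.32) and Pms2 (0.544). With the replicate block, it turned for Fancl (-0.0426), Atrip (-0.0789), Trp53bp1 (0.129), H2afx (-0.0511) and Pms2 (0.262). Under quantile normalization, it turned for Rad51d (0.00173), Atrip (-0.00989) and Pms2 (0.0208). Without both libraries numbered 4, it turned for Rnf168 (0.0787), Rad51d (0.147), Xrcc6 (0.116), Rpa2 (-0.00537), Atr (-0.0652), Brca2 (-0.76) and Mdc1 (0.163). Leaving out 1 library at a time, the difference ranged as follows where its sign turned: Rnf168 -0.208 to 0.032, Msh3 -0.856 to 0.202, Rad51d -0.185 to 0.155, Ercc3 -0.516 to 0.0466, Atrip -0.12 to 0.096, Trp53bp1 -0.121 to 0.11, H2afx -0.00138 to 0.113, Mdc1 -0.278 to 0.142, Xrcc6 -0.238 to 0.148, Ercc2 -0.561 to 0.0283, Pms2 -0.429 to 0.523, Fancl -0.068 to 0.139, Rpa2 -0.129 to 0.613, Brca2 -0.302 to 0.788 and Atm -0.509 to 0.0613. The 95% confidence interval of a member's difference, not adjusted for the number of genes tested, reached a median of 0.62 to either side. Larger differences also missed the adjusted threshold, such as 1.03 for Lig1 (limma adjusted p = 0.708). Genes with low counts such as Chek1 and Brca2 were the least precise.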

Other observations

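Mutyh (ENSMUSG00000028687, chromosome 4 from 116807723 to 116819440 in GRCm38), the glycosylase that removes adenine paired with oxidised guanine, stood out among the further base excision genes and was named after its values were seen. Its mean was below the filter, so it was not in the reported test. Its values in PAHSA replicates 1 to 4 were 1.35, 1.35, 2.70 and 2.34 log2 CPM, from 93, 90, 258 and 202 estimated counts. Among vehicle libraries it had 0.27 log2 CPM, from 49 estimated counts, in replicate 3 and was listed at the lowest value, an estimate of 0 counts, in replicates 1, 4 and 5. Such a listing can be a failed estimate of the transcript model. Without the filter the difference was 6.57 (SE 1.48) with an unadjusted p of 0.00130 and an adjusted p of 0.630 in limma over 13725 genes, and its size depends on the added 0.5 counts. The same pattern, groups apart with 3 libraries of one group at the lowest value, was found for 4 genes with vehicle low and for 4 genes with PAHSA low. Toe1, which starts beside Mutyh on the other strand and shares 0 exon bases with it, had 3.54, 4.94, 3.70 and 4.58 log2 CPM in PAHSA libraries and 4.18, 4.38, 4.16 and 3.93 in vehicle libraries, and the groups overlapped. Nthl1, another base excision glycosylase gene below the filter, was at 1.91, -6.15, -6.31 and 1.74 log2 CPM in PAHSA libraries and -0.47, 0.49, 2.52 and 0.49 in vehicle libraries. Neil3 and Ung of the same list were also below the filter, and their values are not given.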
